A study of Mus musculus with 6 samples.

Results

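The genes described here encode the proteins of 2 ribosomes, the one that works in the cytosol and the one that works inside mitochondria. Cytosolic members have a symbol made of Rpl or Rps and a number, with or without a final a, x or l, or are Rplp0, Rplp1 or Rplp2. Mitochondrial members have a symbol made of Mrpl or Mrps and a number. Of 20659 named genes on the array, 156 fitted these patterns, 81 of them cytosolic and 75 mitochondrial. The filter on dim probes left 153 of them, 79 cytosolic and 74 mitochondrial, among 15535 genes tested. The 3 members that did not pass were Rps4l, Rpl39l and Mrpl21, whose probes were well above background on 2, 1 and 0 of the 6 arrays. No named probe on the array stood for Rpl6l, which the annotation lists as a pseudogene.

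RNA came from MC3T3-E1, a mouse pre-osteoblast line derived from calvaria. The cells were grown for 3 days on De-HA, an iron-manganese-silicon (FeMnSi) scaffold that was dealloyed and then given a bioactive coating (n = 3), or on the original FeMnSi scaffold (n = 3). Both groups therefore grew on the same alloy base, and the labels do not name the coating further or say whether the wells were separate cultures, so p-values reflect only how much these samples vary, and that variation could be technical. Each sample was labelled with Cy3 and hybridised to 1 Agilent array.

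The 3 De-HA arrays and FeMnSi 1 were on slide 1, and FeMnSi 2 and FeMnSi 3 were on slide 2, so the slide separates the groups in part. All 6 osteoblast-lineage markers (Runx2, Sp7, Alpl, Col1a1, Col1a2, Bglap2) were well above background on every array. Their summed signal, in multiples of each array's 75th percentile, was 192 to 228 on De-HA arrays and 137 to 171 on FeMnSi arrays. Of 3 macrophage markers on the array (Adgre1, Csf1r, Ptprc), all were above background on every array, with sums of 1.29 to 1.44 and 0.837 to 1.08 in De-HA and FeMnSi. Of the other lists, all 3 fibroblast markers (105 against 92.8 to 95.6), 2 of 3 epithelial markers (0.0931 to 0.121 against 0.0606 to 0.0766), 2 of 4 endothelial markers (0.802 to 0.886 against 0.628 to 0.649) and 2 of 4 muscle markers (0.197 to 0.242 against 0.0910 to 0.140) were above background on every array. Adipoq, Cidec and Lep, Cdh5 and Tek, and Myog and Ckm were above background on no array. The part of these marker levels in the results below was not tested. Fewer cells of a type and less RNA per cell cannot be told apart in such bulk samples.

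As background, a ribosome has a large subunit, where peptide bonds form, and a small subunit, where the mRNA is read. Cytosolic ribosomal proteins are made in the cytosol, imported into the nucleus and assembled on rRNA in the nucleolus. Their mRNAs typically start with a cytidine in a run of pyrimidines, the 5′ terminal oligopyrimidine (TOP) tract, through which mTORC1 signalling and the La-related protein LARP1 adjust their translation and stability. Mitochondrial ribosomal proteins are encoded by nuclear genes too, but are imported into mitochondria, where their ribosome makes a small set of respiratory chain subunits from mitochondrial DNA. Their mRNAs are not classed as TOP mRNAs as a group. Osteoblasts secrete large amounts of collagen, and both ribosomes are present in every proliferating cell.

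Sequences around the start site are shown because TOP tracts are typical of cytosolic ribosomal protein mRNAs. The tract was not used to define the 2 sets of genes. Each window runs 5′ to 3′ on the gene's strand from 35 bases before to 15 bases from the RefSeq start, with coordinates in GRCm38.p6. Capitals mark an unbroken run of at least 8 C or T letters that comes within 5 bases of that start. The genes printed were picked by hand and do not show how common the run is. It was present in 24 of 60 cytosolic and 7 of 66 mitochondrial promoters, so most cytosolic promoters lacked it too. The first 5 genes are cytosolic and the other 3 are mitochondrial:
Rpl35 (chr2:39005117-39005166, minus strand): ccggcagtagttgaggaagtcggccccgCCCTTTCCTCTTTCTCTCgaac
Rps6 (chr4:86857353-86857402, minus strand): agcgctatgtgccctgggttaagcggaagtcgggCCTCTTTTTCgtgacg
Rps27 (chr3:90213634-90213683, minus strand): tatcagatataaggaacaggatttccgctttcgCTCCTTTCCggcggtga
Rpl4 (chr9:64173352-64173401, plus strand): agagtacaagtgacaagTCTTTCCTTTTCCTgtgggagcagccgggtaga
Rpl18 (chr7:45718036-45718085, plus strand): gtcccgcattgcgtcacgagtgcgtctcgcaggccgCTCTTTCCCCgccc
Mrpl27 (chr11:94653756-94653805, plus strand): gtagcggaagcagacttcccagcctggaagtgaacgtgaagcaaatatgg
Mrps7 (chr11:115604105-115604154, plus strand): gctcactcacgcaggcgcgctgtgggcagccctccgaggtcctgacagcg
Mrps2 (chr2:28468031-28468080, plus strand): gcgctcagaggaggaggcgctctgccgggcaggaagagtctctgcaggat

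Promoters were found for 60 cytosolic and 66 mitochondrial genes. A pyrimidine run of that length and place was present in 24 of 60 cytosolic promoters (40.0%), in 7 of 66 mitochondrial ones (10.6%) and in 11% of all genes with a promoter. The start is the annotated one, and a run more than 5 bases off it is not counted. A run that ends just before the annotated start, as in Rpl4, is counted. The letters CCGGAAG, the core of the motif that ETS factors bind, searched on both strands from 250 bases before to 50 after the start, were present in 40.0% of cytosolic, 34.8% of mitochondrial and 9.93% of all promoters. AAGATGG, the core of the YY1 motif, was present in 15%, 18.2% and 7.28%, and can overlap CCGGAAG by its first 3 letters. GCGCATGC, the NRF1 motif, was present in 5%, 10.6% and 3.05%, and TATAAA in 11.7%, 7.58% and 15.7%. These shares describe annotated promoters and were not tested.

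With arrays shifted by their 75th percentile, cytosolic ribosomal protein genes had slightly more signal on De-HA than on FeMnSi. Mitochondrial ones were centred near 0. The cytosolic shift depended on the scaling between arrays, and under quantile normalization the 2 groups overlapped in it (given below). On the scale used throughout, the log2 processed signal minus the array's 75th percentile, 78 of 79 cytosolic genes had a log2 fold change (De-HA minus FeMnSi) above 0, with a median of 0.33 (1.26-fold) and quartiles of 0.25 and 0.42. Of 74 mitochondrial genes, 37 were above 0 and 37 below, with a median of 0.001 and quartiles of -0.11 and 0.16. Over all 15535 genes, 63.1% were above 0 and the median was 0.10, so the cytosolic median stood above that of all genes and the mitochondrial median below it. By limma with Benjamini-Hochberg adjustment over all genes, 9 cytosolic genes rose and 0 fell at an adjusted p of 0.05, against 6.46% of all genes called higher and 4.29% called lower. That makes 11.4% of cytosolic genes called, near the 10.7% of all genes called in either direction. No mitochondrial gene was called by limma; at an unadjusted p under 0.05, 5 were higher and 4 lower, against 22.8% and 10.7% of all genes.

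**Figure D1:**
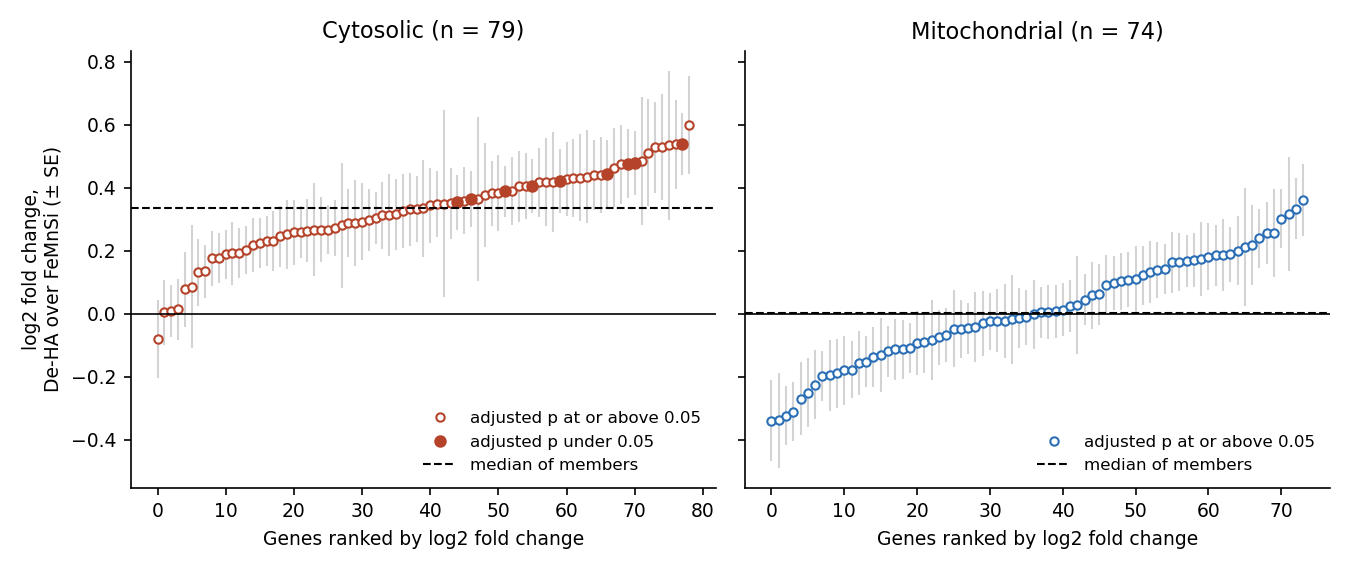
Log2 fold change (De-HA minus FeMnSi) of each tested member, ranked within the cytosolic (79 genes) and mitochondrial (74 genes) ribosome, with SE bars, filled points for genes past the adjusted p of 0.05 and a dashed line at the median. All cytosolic points but Rpl21 lie above 0, while the mitochondrial points run from -0.34 to 0.36 with 37 on each side.

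On this scale most cytosolic genes, and not only those called, lay higher on De-HA. At an unadjusted p under 0.05, 59 of 79 cytosolic genes were higher and 0 lower. Every De-HA array lay above every FeMnSi array for 60 of 79 cytosolic genes (75.9%), against 25.4% of all genes, and the reverse order was seen for 0 against 13.7%. For the mitochondrial ribosome, 13 of 74 genes (17.6%) had De-HA above and 13 had De-HA below. The count of 78 cytosolic genes above 0 depended on the scaling: it was 73 with median scaling, 58 under cyclic loess, 47 under quantile normalization, in the authors' deposited matrix and under normexp, and 70 on slide 1 alone. Under quantile normalization 21 of 74 mitochondrial genes were above 0. The 2 cytosolic subunits had similar values: the median was 0.32 for 49 large-subunit genes, 7 of them called, and 0.35 for 30 small-subunit genes, 2 of them called. The mitochondrial medians were 0.01 for 48 large-subunit genes and -0.02 for 26 small-subunit genes.

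Per array, the median over the cytosolic genes of the signal centred on each gene's mean was 0.15, 0.19 and 0.16 on De-HA 1, 2 and 3, against -0.01, -0.26 and -0.23 on FeMnSi 1, 2 and 3. The corresponding mitochondrial medians were -0.05, 0.04 and 0.00 on De-HA arrays, against -0.01, 0.04 and -0.06 on FeMnSi arrays. Cytosolic minus mitochondrial, the difference was 0.20, 0.15 and 0.15 on De-HA arrays, against -0.01, -0.30 and -0.17 on FeMnSi arrays. The groups did not overlap in this difference, and FeMnSi 1 lay between the De-HA arrays and the other FeMnSi arrays. Its mean was 0.17 ± 0.03 for De-HA and -0.16 ± 0.15 for FeMnSi (SD, n = 3 each), with no test, because the members were chosen with earlier results known.

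**Figure D2:**
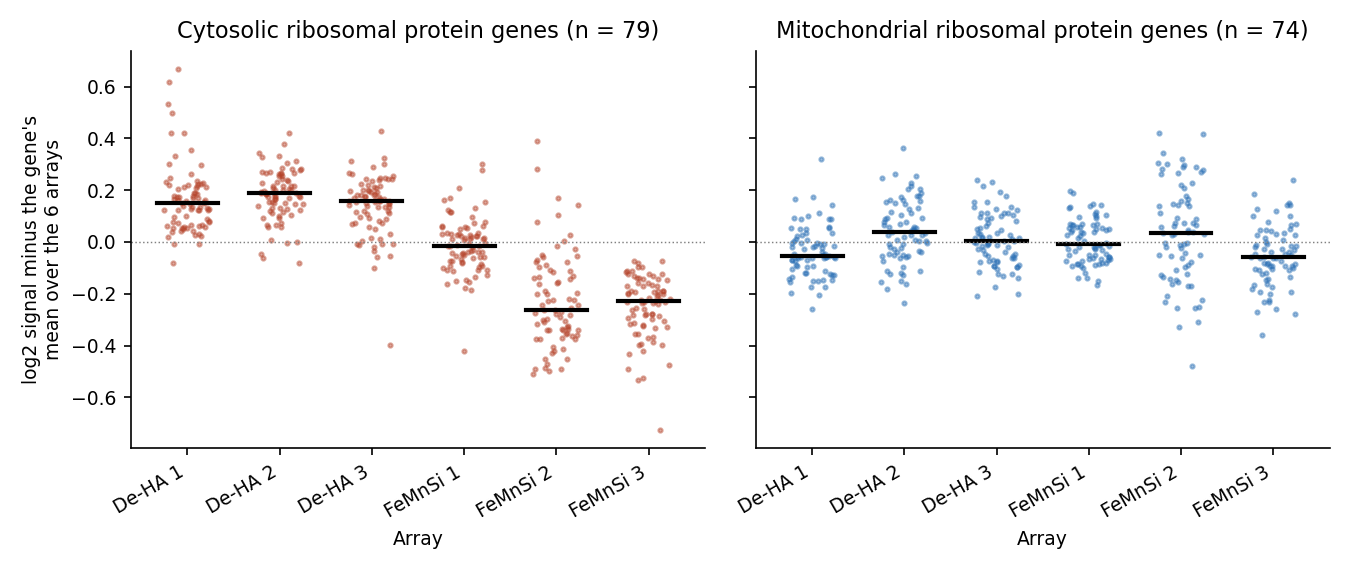
Centred log2 signal of each cytosolic and mitochondrial ribosomal protein gene on the 3 De-HA and the 3 FeMnSi arrays, with a bar at the median over genes on each array. The cytosolic medians are 0.15 to 0.19 on De-HA arrays and -0.26 to -0.01 on FeMnSi arrays, and the mitochondrial medians stay between -0.06 and 0.04 on all 6.

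FeMnSi 1, the FeMnSi array that shared slide 1 with De-HA, was higher than both other FeMnSi arrays for 66 of 79 cytosolic genes (83.5%), against 32 of 74 mitochondrial genes (43.2%) and 49.9% of all genes. It was below all 3 De-HA arrays for 63 cytosolic genes (79.7%), against 32.4% of mitochondrial genes and 38.4% of genes of neither ribosome. On slide 1 alone (3 De-HA arrays against FeMnSi 1), the cytosolic median was 0.18 and the mitochondrial median 0.00, with 0 genes of either ribosome called by limma there (0.232% of all genes called) or with the slide as a block (1.16%). Without FeMnSi 1, 52 cytosolic genes were higher at the adjusted p of 0.05, among them all 9 of the full comparison, and 10 mitochondrial genes passed (4 higher and 6 lower). In that setting 29.7% of all genes passed. Without De-HA 1, 2 or 3, 0 cytosolic genes passed, where 3.3%, 2.41% and 1.51% of all genes did. Without FeMnSi 2 or 3 the count was also 0, where 3.37% and 1.46% of all genes passed.

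The 7 large-subunit genes that rose were Rpl4, Rpl5, Rpl9, Rpl24, Rpl13a, Rpl10a and Rpl8. Rpl4, which lines the exit tunnel of the growing peptide, had 5.58, 5.57 and 5.39 on De-HA 1, 2 and 3, against 5.08, 4.89 and 4.96 on FeMnSi 1, 2 and 3. Every De-HA array was above every FeMnSi array, by more than the spread within either group. The log2 fold change was 0.54 ± 0.10 (SE; limma adjusted p = 0.0246), and 0.43 on slide 1 alone. Rpl5, which carries the 5S rRNA into the large subunit together with Rpl11, had 5.90, 6.02 and 6.0 on De-HA arrays, against 5.65, 5.45 and 5.38 on FeMnSi arrays. Its log2 fold change was 0.48 ± 0.10 (SE; limma adjusted p = 0.0344). FeMnSi 1 was the nearest FeMnSi array to De-HA, and slide 1 alone gave 0.32.

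Rpl9, a protein at the base of the GTPase-associated stalk, had 7.02, 6.97 and 7.03 on De-HA arrays, against 6.74, 6.40 and 6.47 on FeMnSi arrays (log2 fold change 0.48 ± 0.11 SE; limma adjusted p = 0.0416). Rpl24, which takes part in a bridge between the subunits, had 4.8, 4.91 and 4.78 on De-HA arrays, against 4.50, 4.36 and 4.42 on FeMnSi arrays (0.41 ± 0.09 SE; limma adjusted p = 0.0350). In both genes the De-HA arrays lay closer to each other than to any FeMnSi array. Rpl13a, which in human cells also represses translation of inflammatory mRNAs when released from the ribosome, had 4.94, 5.0 and 4.90 on De-HA arrays, against 4.66, 4.55 and 4.37 on FeMnSi arrays (0.42 ± 0.10 SE; limma adjusted p = 0.0469).

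Rpl10a, part of the L1 stalk through which spent tRNA leaves, had 6.01, 6.06 and 6.13 on De-HA arrays, against 5.72, 5.64 and 5.68 on FeMnSi arrays (0.39 ± 0.08 SE; limma adjusted p = 0.0335). Rpl8, a core protein close to the peptidyl transferase centre, had 5.51, 5.55 and 5.47 on De-HA arrays, against 5.22, 5.19 and 5.05 on FeMnSi arrays (0.35 ± 0.09 SE; limma adjusted p = 0.0487). For both, the groups were apart and the FeMnSi arrays were close to each other. The other probe gave 0.45 for Rpl10a and 0.05 for Rpl8, and the other probes of Rpl13a gave 0.14 and 0.09. Slide 1 alone gave 0.35 for Rpl10a and 0.28 for Rpl8, and quantile normalization gave 0.030 (limma adjusted p = 0.850) and 0.061 (limma adjusted p = 0.682).

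In the small subunit, Rps29, a zinc-binding protein of its head, rose. It had 6.46, 6.19 and 6.13 on De-HA arrays, against 5.85, 5.76 and 5.83 on FeMnSi arrays (0.44 ± 0.11 SE; limma adjusted p = 0.0488). The groups were apart, and De-HA 1 stood above the other De-HA arrays. Under quantile normalization the log2 fold change was 0.26 for Rpl4, 0.18 for Rpl13a, 0.17 for Rpl24, 0.14 for Rpl5, 0.10 for Rpl9 and 0.085 for Rps29, and none of these genes passed. A slide block gave the 9 genes called an adjusted p of 0.157 to 0.288.

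**Figure D3:**
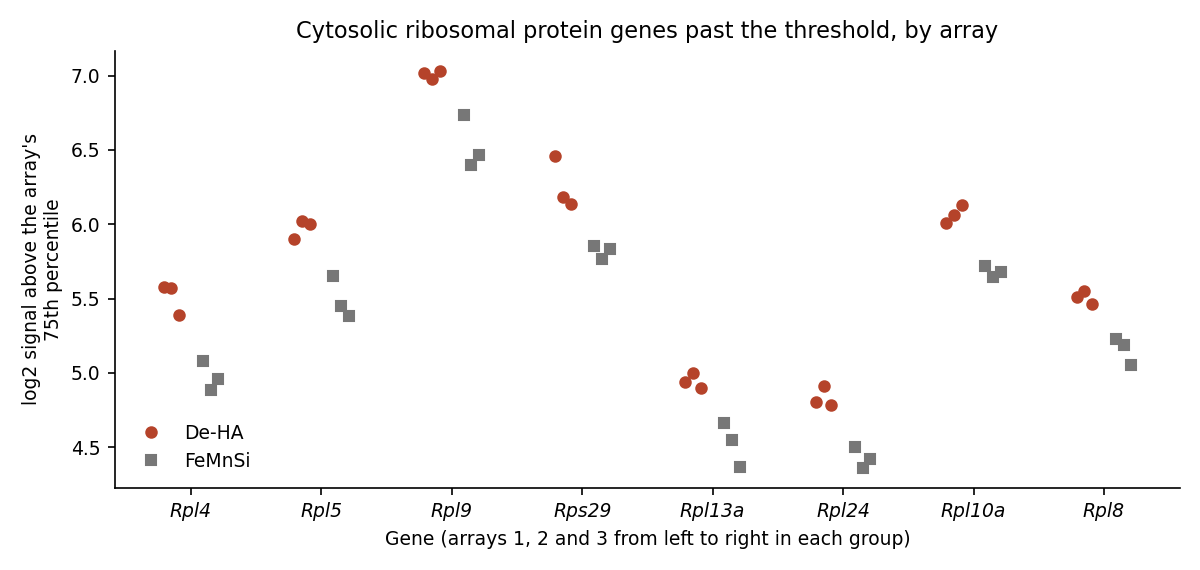
Scaled log2 signal of 8 cytosolic genes past the adjusted p of 0.05 on each De-HA array (circles) and FeMnSi array (squares), arrays 1, 2 and 3 running left to right. In each gene the 3 De-HA points lie above the 3 FeMnSi points, and FeMnSi 1, the leftmost square, is the highest FeMnSi point.

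The highest log2 fold change of any member belonged to Rpl35, a protein next to the exit tunnel, which did not pass the adjusted threshold. It had 7.0, 6.66 and 6.65 on De-HA arrays, against 6.43, 5.98 and 6.11 on FeMnSi arrays, with a log2 fold change of 0.60 ± 0.16 (SE; limma adjusted p = 0.0555). Its promoter has the longest pyrimidine run of those printed above. The stalk proteins, which recruit elongation factors, are given next, and differences among their genes were not tested. Rplp2 had 7.40, 7.60 and 7.47 on De-HA arrays, against 7.23, 6.83 and 6.99 on FeMnSi arrays (0.47 ± 0.13 SE; limma adjusted p = 0.0583). Its partner Rplp1 had 4.68, 4.71 and 4.61 on De-HA arrays, against 4.57, 4.31 and 4.33 on FeMnSi arrays (0.26 ± 0.10 SE; limma adjusted p = 0.124). Rplp0, the scaffold on which both sit and a common reference gene, had 6.15, 6.14 and 6.12 on De-HA arrays, against 5.97, 6.10 and 5.94 on FeMnSi arrays (0.13 ± 0.08 SE; limma adjusted p = 0.285). The other Rplp0 probes gave 0.24 and 0.27, close to the value of Rplp1. None of the stalk genes passed the test, although the groups were apart for all 3 on this scale. Quantile normalization turned the sign of Rplp0 (-0.23).

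Among members followed for their known roles, Rps6, the substrate of S6 kinase, had 5.86, 5.93 and 5.81 on De-HA arrays, against 5.88, 5.25 and 4.88 on FeMnSi arrays. FeMnSi 1 lay within the De-HA range. The log2 fold change was 0.53 ± 0.24 (SE; limma adjusted p = 0.163), and -0.01 on slide 1 alone. The other 2 Rps6 probes gave -0.09 and -0.01. Rpl11, the partner of Rpl5 in the 5S particle that binds MDM2, had 6.58, 5.87 and 5.82 on De-HA arrays, against 5.49, 6.30 and 5.42 on FeMnSi arrays. The groups overlapped through FeMnSi 2, and the log2 fold change was 0.35 ± 0.30 (SE; limma adjusted p = 0.426).

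Rps19, the gene most often mutated in Diamond-Blackfan anaemia, had 1.62, 1.77 and 1.60 on De-HA arrays, against 1.63, 1.61 and 1.37 on FeMnSi arrays (0.13 ± 0.11 SE; limma adjusted p = 0.410). Rps18, often used as a reference gene, had 5.30, 5.41 and 5.42 on De-HA arrays, against 5.16, 5.11 and 5.08 on FeMnSi arrays (0.26 ± 0.08 SE; limma adjusted p = 0.0876). Of these, Rps18 had groups apart and Rps19 did not. Rpl39, a small protein of the exit tunnel, had 6.08, 6.12 and 6.09 on De-HA arrays, against 5.94, 5.89 and 5.89 on FeMnSi arrays (0.19 ± 0.08 SE; limma adjusted p = 0.141). Under quantile normalization Rpl39 was at -0.16 and Rps18 at -0.02.

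The paralog Rps27l and the core genes Rpl3, Rpl21 and Rpl18 lay near 0. Rps27, a zinc-binding small-subunit protein, had 6.69, 6.66 and 6.71 on De-HA arrays, against 6.49, 6.10 and 6.19 on FeMnSi arrays (0.43 ± 0.12 SE; limma adjusted p = 0.0632). Rps27l, its paralog and a p53 target, had 4.14, 4.38 and 4.17 on De-HA arrays, against 4.26, 4.30 and 4.11 on FeMnSi arrays (0.00 ± 0.10 SE; limma adjusted p = 0.983). The groups were apart for Rps27 and mixed for Rps27l. Rpl3, a core protein of the peptidyl transferase centre, had 4.61, 4.57 and 4.55 on De-HA arrays, against 4.51, 4.71 and 4.47 on FeMnSi arrays (0.01 ± 0.10 SE; limma adjusted p = 0.933). Rpl3l, its paralog of heart and skeletal muscle, was above background on 4 of the 6 arrays and had a log2 fold change of 0.28 ± 0.20 (SE; limma adjusted p = 0.341). Rpl21 was the only member of the 79 below 0 in this scaling, with 5.25, 5.20 and 5.21 on De-HA arrays, against 5.25, 5.54 and 5.10 on FeMnSi arrays (-0.08 ± 0.12 SE; limma adjusted p = 0.666). Rpl18, which has a pyrimidine run near its annotated start, was at 0.01 with the groups overlapping.

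Tested cytosolic genes with a promoter were split by a pyrimidine run within 5 bases of the annotated start. The median log2 fold change was 0.40 for 24 with the run (range 0.00 to 0.60, 2 called). It was 0.33 for 35 without (range 0.09 to 0.48, 4 called). Among mitochondrial genes it was -0.04 for 7 with such a run and 0.00 for 58 without. Genes with and without the run thus covered overlapping ranges within each ribosome. Beside the counts called, 6.46% of all genes were called higher and 4.29% lower.

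In the mitochondrial ribosome the values spread to both sides of 0. Mrpl27, a large-subunit protein, had 4.44, 4.55 and 4.45 on De-HA arrays, against 4.34, 3.99 and 4.03 on FeMnSi arrays (0.36 ± 0.12 SE; limma adjusted p = 0.0863). Mrps7, a small-subunit protein that binds the rRNA, had 2.08, 2.23 and 2.27 on De-HA arrays, against 1.95, 1.77 and 1.85 on FeMnSi arrays (0.33 ± 0.10 SE; limma adjusted p = 0.0692). The second probe of each pointed the other way, at -0.18 for Mrpl27 and -0.20 for Mrps7. Mrpl20 had a log2 fold change of 0.30 ± 0.09 (SE; limma adjusted p = 0.0822) with the groups apart.

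At the other end, Mrps2 had -1.54, -1.55 and -1.56 on De-HA arrays, against -1.33, -1.09 and -1.26 on FeMnSi arrays (-0.32 ± 0.09 SE; limma adjusted p = 0.0687). Mrpl14 had 2.54, 2.57 and 2.49 on De-HA arrays, against 2.73, 2.97 and 2.83 on FeMnSi arrays (-0.31 ± 0.09 SE; limma adjusted p = 0.0754). In both the groups were apart, with De-HA low, and neither passed the threshold. Mrpl10, at -0.34 ± 0.13 (SE; limma adjusted p = 0.122), had both of its probes below 0. Mrps15, also at -0.34, had 0.10, 0.13 and 0.18 on De-HA arrays, against 0.15, 0.73 and 0.55 on FeMnSi arrays, so FeMnSi 1 lay within the De-HA range. Mrpl12, which also binds the mitochondrial RNA polymerase, had 0.68, 0.77 and 0.76 on De-HA arrays, against 1.02, 0.92 and 0.81 on FeMnSi arrays (-0.18 ± 0.09 SE; limma adjusted p = 0.201).

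Among mitochondrial genes followed for known roles, Mrps16, mutated in a combined respiratory chain deficiency, had 3.19, 3.47 and 3.44 on De-HA arrays, against 3.40, 2.72 and 3.01 on FeMnSi arrays (0.32 ± 0.18 SE; limma adjusted p = 0.248). Here FeMnSi 1 lay inside the De-HA range, and slide 1 alone gave -0.04. The log2 fold changes were 0.22 for Mrps27, a pentatricopeptide repeat protein, 0.19 for Mrpl58, a peptide-release factor built into the large subunit, and 0.14 for Mrpl44, a protein with an RNase III fold. They were 0.06 for Mrps34, -0.11 for Mrpl3 and -0.12 for Mrps22, which are all mutated in inherited respiratory chain disease. Mrps36, now regarded as a subunit of the oxoglutarate dehydrogenase complex and not of the ribosome, was at -0.01. None of these passed the test.

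The 2 ribosomes differ in how bright their probes were, and the comparison with all genes depends on this. With the genes tested split by mean signal into 10 bins, the brightest bin (1554 genes) held 76 of 79 cytosolic and 12 of 74 mitochondrial genes; the cytosolic genes outside it were Rpl3l, Rpl10l and Rps19. The 1466 genes of that bin that belong to neither ribosome had a median log2 fold change of 0.21, and 8.53% of them were called higher. The cytosolic median there was 0.34 and that of the 12 mitochondrial genes 0.15. Among the 311 brightest genes, the 55 cytosolic ones had a median of 0.36 and the 256 genes of neither ribosome 0.30, of which 7.81% were called higher. Across the 10 bins from dim to bright, the median of genes of neither ribosome was 0.29, 0.22, 0.10, 0.04, 0.01, -0.01, 0.02, 0.06, 0.13 and 0.21, so dim and bright genes both stood above those in between. Across genes within each ribosome, fold change and mean signal correlated with r = 0.22 and rho = 0.40 for 79 cytosolic genes and r = 0.35 and rho = 0.39 for 74 mitochondrial genes. These genes share the same 6 arrays and are not independent.

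**Figure D4:**
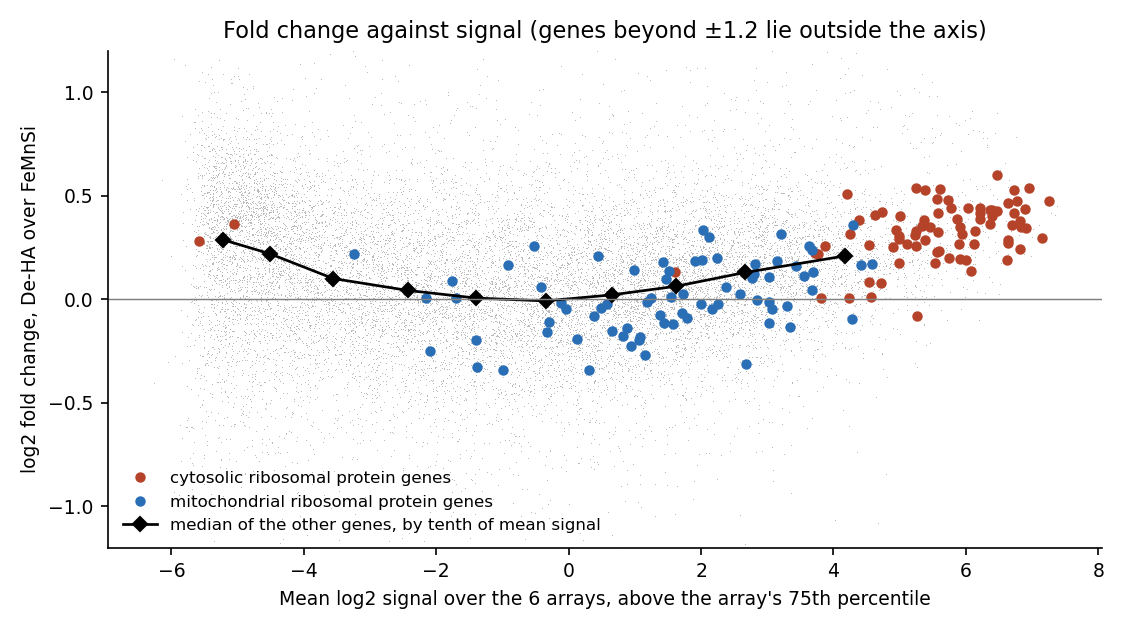
Log2 fold change (De-HA minus FeMnSi) against mean scaled log2 signal for all 15535 genes tested, with cytosolic and mitochondrial members in colour and the median of genes of neither ribosome in 10 bins of signal; genes beyond the vertical axis are not drawn. All but 3 cytosolic genes sit at the bright end, where that median is 0.21 in the brightest bin.

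Under scalings that remove a dependence on brightness the cytosolic median was near 0, and it still lay above the mitochondrial one. With 76 of 79 cytosolic genes in the brightest bin, such scalings also shrink a shift that these genes share with other bright genes. A shift of the cytosolic genes and one of bright genes cannot be told apart this way. Quantile normalization gave a cytosolic median of 0.030 and a mitochondrial median of -0.075, cyclic loess 0.071 and -0.063, and the authors' deposited matrix 0.031 and -0.073. Each of these set the median of all genes near 0 (-0.01 in all 3), and limma called 0 cytosolic genes in any of them, against 10.3% of all genes under quantile normalization, 10.5% under loess and 10.1% in the matrix. With only the array's median in place of its 75th percentile, the cytosolic median was 0.25 and 1 cytosolic gene (Rpl4) was called, against 7.98% of all genes. Normexp background correction with quantile normalization also called Rpl4 and 6 mitochondrial genes, against 11.9%. Without a filter on dim probes 0 members were called (2.52% of all genes), and with probes above background on all 6 arrays 23 cytosolic genes were called (14.5%). The mean of a gene's probes gave 11 (10.6%), among them 6 of the 9 called on the main scale but not Rpl8 or Rpl13a. The replicate number as a block gave 1, Rpl35 (4.46%). The cytosolic median minus the mitochondrial one was 0.33 on the main scale, 0.10 under quantile normalization, 0.13 under loess and 0.10 in the matrix. Per array under quantile normalization it was 0.08, 0.05 and 0.04 on De-HA arrays, against -0.02, -0.09 and -0.04 on FeMnSi arrays. The groups were still apart in this difference, with FeMnSi 1 the nearest to De-HA. The cytosolic medians alone overlapped under quantile normalization, at 0.019, 0.010 and -0.010 on De-HA arrays, against -0.039, 0.024 and -0.003 on FeMnSi arrays. The mitochondrial medians were -0.061, -0.040 and -0.052 on De-HA arrays, against -0.015, 0.115 and 0.036 on FeMnSi arrays. Under loess, Mrpl14 was the 1 mitochondrial gene called, as lower, at -0.43 (limma adjusted p = 0.0448), against 6.32% of all genes called lower.

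**Figure D5:**
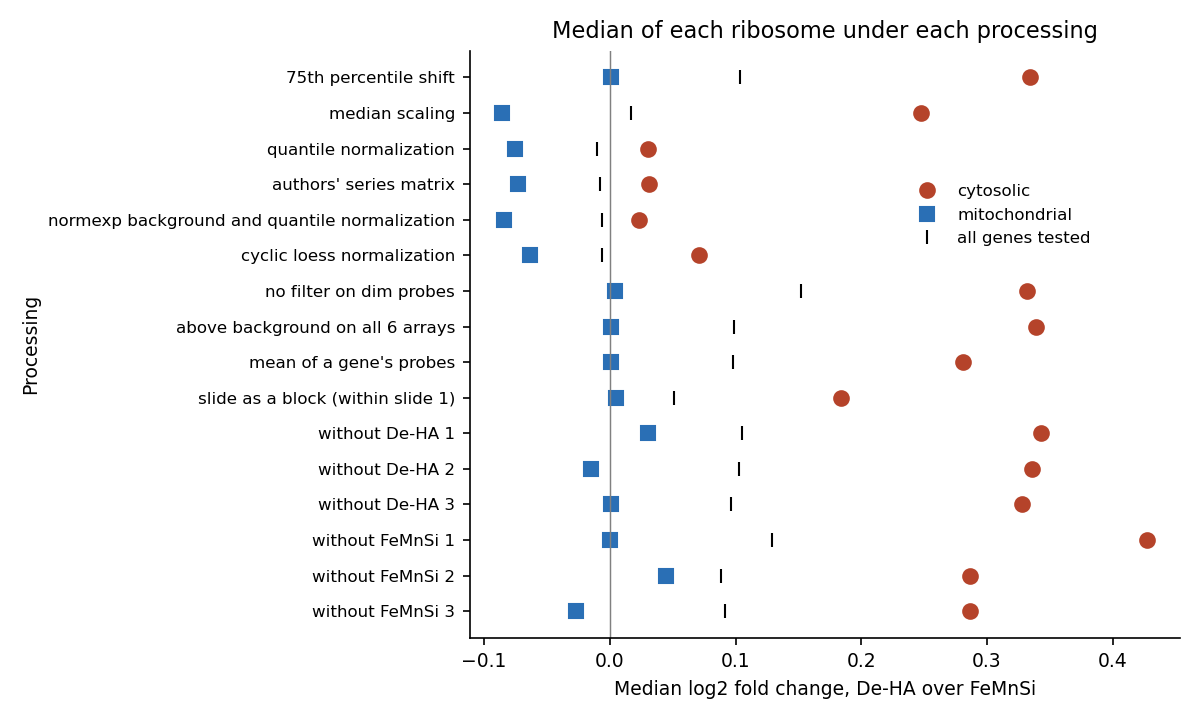
Median log2 fold change (De-HA minus FeMnSi) of the cytosolic and mitochondrial ribosomal protein genes and of all genes tested under each processing setting. The cytosolic median is 0.33 on the main scale and 0.02 to 0.07 under quantile, loess, matrix and normexp values, and it lies above the mitochondrial median in every setting run.

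Several probes per gene and close copies limit single values. Of 162 cytosolic probes kept, 150 were above 0 with a median of 0.29; of 95 mitochondrial probes, 43 were above 0 with a median of -0.02. Of 50 cytosolic genes with several probes, 8 had probes that differed in sign (among them Rps6, Rps15a and Rpl15), as had 10 of 21 mitochondrial genes. The RefSeq table lists 321 pseudogene symbols of the cytosolic family and 6 of the mitochondrial one, and a probe that also binds such a copy cannot be told from one that does not.

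The pathways around the ribosome were counted in the same fit, again against 6.46% of all genes called higher and 4.29% lower. Of 8 cytosolic ribosomal proteins whose symbols lie outside the pattern, 1 rose, Rpl22l1, the paralog of Rpl22, with 5.44, 5.58 and 5.50 on De-HA arrays, against 5.19, 4.75 and 4.95 on FeMnSi arrays (0.54 ± 0.13 SE; limma adjusted p = 0.0425). The median of the 8 was 0.23. None of 8 such mitochondrial proteins passed (median 0.18), the smallest p-values belonging to Gadd45gip1 (0.37) and Chchd1 (0.32). Of 83 nucleolar assembly factors, 2 rose and 4 fell (median -0.06). Tsr2, known from yeast as the escort of Rps26, fell by 0.56 (limma adjusted p = 0.0195), Rcl1, known from yeast for small-subunit rRNA processing, by 0.52 (limma adjusted p = 0.0432) and Pno1, a small-subunit assembly factor, by 0.45 (limma adjusted p = 0.0387). Sbds, which helps release the anti-association factor from new large subunits, rose by 0.35 (limma adjusted p = 0.0435). On slide 1 alone, where FeMnSi 1 is the only FeMnSi array, most of these values were smaller. They were -0.42 for Tsr2, -0.34 for Rcl1, -0.31 for Pno1, 0.32 for Rpl22l1 and 0.34 for Sbds.

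Of 10 genes of the 5S particle and p53 surveillance, 1 fell, Rrs1, which in yeast brings the 5S particle into the pre-ribosome (-0.47; limma adjusted p = 0.0454; median -0.09). None of 22 RNA polymerase I and rDNA transcription genes passed (median -0.03), Polr2l (0.40) and Polr1d (0.44) having the smallest p-values. The other probe gave -0.18 for Polr2l and 0.11 for Polr1d. Of 39 initiation factors, 2 rose (median 0.06): Eif5b, which joins the subunits (0.63; limma adjusted p = 0.0173), and the eIF3 subunit gene Eif3h (0.43; limma adjusted p = 0.0394). Eif3h lost its call under loess (0.17, limma adjusted p = 0.172) and quantile normalization (0.097), and its other probe gave 0.086. That left 1 initiation factor called under loess, Eif5b (0.40). Eif5b was dim, at -4.29 to -4.40 on De-HA arrays and -4.85 to -5.15 on FeMnSi arrays. Under normexp Eif5b was not called (0.11, limma adjusted p = 0.216). Slide 1 alone gave -0.35 for Rrs1, 0.49 for Eif5b and 0.29 for Eif3h. None of 14 genes listed with the elongation and release factors passed (median 0.02). Of these, Tpt1, not itself such a factor, was at 0.35 and Eef2 at 0.23. Quantile normalization gave 0.0056 for Tpt1 and turned the sign of Eef2 (-0.076). None of 17 genes of mTORC1 and S6 kinase control passed (median 0.26), with the S6 kinase genes Rps6kb2 at 0.37 and Rps6kb1 at 0.44. Their lowest probes gave 0.23 for Rps6kb2 and -0.13 for Rps6kb1. None of 22 genes listed with the cytosolic aminoacyl-tRNA synthetases passed (median -0.14). Of these, Aimp1, an accessory gene and not a synthetase, was at 0.44 and Mars1 at -0.25.

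On the mitochondrial side, none of 15 genes listed with the translation factors passed (median 0.23). Of these, Oxa1l was at 0.35 and Lrpprc at 0.45, and neither is a translation factor in the strict sense. None of 23 ribosome assembly genes passed either (median 0.04, with Tfb1m at -0.41 and Noa1 at 0.59). Of 11 genes of mitochondrial transcription, 1 rose, the termination factor gene Mterf1a (0.35; limma adjusted p = 0.0472; median 0.20). Slide 1 alone gave 0.36 for Mterf1a. Of 19 mitochondrial aminoacyl-tRNA synthetase genes, 0 rose and 1 fell (median -0.05). Under cyclic loess the medians of all 13 lists shifted down, as did that of all genes (from 0.10 to -0.01). They were -0.05 for the 8 cytosolic ribosomal proteins outside the pattern and -0.14 for the 83 nucleolar assembly factors. Of these 83 factors, 5 were then called lower, a share near the 6.32% of all genes called lower, and 0 higher. Under quantile normalization 5 list medians above 0 turned below it: -0.10 for the 8 cytosolic and -0.023 for the 8 mitochondrial ribosomal proteins outside the pattern, -0.072 for initiation factors, -0.099 for elongation and release factors and -0.061 for mitochondrial ribosome assembly. Rpl22l1 (0.26; limma adjusted p = 0.108), Sbds (0.18; limma adjusted p = 0.195) and Mterf1a (0.31; limma adjusted p = 0.0627) also lost their calls there.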

How the data were processed

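Scanner output came from Agilent Feature Extraction 11.0.1.1 according to the submitters' processing notes. The processed signals are linear intensity values, per the file headers background-subtracted and detrended within an array, with no scaling between arrays. The authors' deposited matrix holds log2 values with a median of 5.77 in every column, and how it was made was not stated. Here, log2 processed signals were shifted by the array's 75th percentile, spots marked as outliers were dropped, and a probe was kept if well above background on 3 or more of 6 arrays. RefSeq accessions (GRCm38.p6) gave the gene names, and the brightest probe stood for a gene. The main test of De-HA against FeMnSi used limma 3.58.1 (R 4.3.3; lmFit, then eBayes with no trend), two-sided, with Benjamini-Hochberg adjustment over 15535 genes. The 75th percentile of the signal was 582 to 720 and no spot was saturated; 3 arrays a group limit the precision. Alternatives were quantile, median and cyclic loess scaling, the matrix, normexp (offset 50) with quantile normalization, other filters on dim probes, the mean of probes, outliers kept, a replicate block, the slide as a block or slide 1 by itself, and each array left out. The files carry no mean signal, so normexp used the median signal and median background. Scripts were tested on simulated data. Promoters are from RefSeq. The members and the 13 lists were chosen with earlier results of these data known. Named by rule were members past the threshold, members given for their roles, and of each list up to 4 genes past it or the 2 smallest p-values; some of these genes are not reported here. Rpl35, Rpl18, Rpl21, Mrpl27, Mrpl20, Mrps7, Mrps2, Mrpl14, Mrpl10, Mrps15, Mrps36, Rpl10l and the genes with discordant probes were named after their values were seen.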

Additional observations from a re-analysis of the deposited data

How the results depend on the processing

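The cytosolic count of 9 became 0 under quantile and cyclic loess scaling, in the authors' matrix, with no filter on dim probes, with a slide block and on slide 1 by itself, 1 under median scaling, normexp and the replicate block, and 23 with probes above background on all 6 arrays. Leaving out an array gave 0 to 52. The mitochondrial count of 0 became 1 under loess and 6 under normexp (Mrpl12, Mrpl14, Mrpl42, Mrpl57 and Mrps12 lower, Mrps7 higher), and was 0 to 10 with an array left out. The 1669 calls over all genes became 519 with no filter, 693 under the replicate block, 180 with a slide block, 36 on slide 1 and 227 to 4611 with an array left out. Of all calls, 1003 were higher and 666 lower, against 632 and 975 under quantile normalization and 651 and 982 under loess.

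The cytosolic median was 0.030 under quantile normalization, 0.071 under loess, 0.031 in the matrix, 0.023 under normexp and 0.184 with a slide block or on slide 1, and 0.287 to 0.428 with an array left out. The mitochondrial median was -0.075 under quantile normalization, -0.086 under median scaling, -0.063 under loess, -0.073 in the matrix and -0.084 under normexp, and -0.027 to 0.044 with an array left out. The cytosolic minus the mitochondrial median was 0.105 under quantile normalization, 0.134 under loess, 0.104 in the matrix, 0.108 under normexp and 0.179 with a slide block or on slide 1, and 0.242 to 0.428 with an array left out.

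Among the ribosomal genes named by rule, values changed sign as follows. Under quantile normalization the log2 fold change was -0.228 for Rpl3, -0.227 for Rplp0, -0.214 for Rps27l, -0.160 for Rpl39, -0.055 for Mrps34, -0.024 for Rps18 and -0.017 for Rpl11. In the matrix it was -0.227 for Rpl3, -0.227 for Rplp0, -0.210 for Rps27l, -0.161 for Rpl39, -0.051 for Mrps34, -0.024 for Rps18 and -0.014 for Rpl11. Under loess it was -0.195 for Rpl3, -0.151 for Rplp0, -0.188 for Rps27l, -0.093 for Rpl39 and -0.048 for Mrps34. Under median scaling it was -0.073 for Rpl3, -0.083 for Rps27l and -0.028 for Mrps34. Under normexp it was -0.205 for Rpl3, -0.274 for Rplp0, -0.176 for Rps27l, -0.118 for Rpl39, -0.073 for Mrps34, -0.018 for Rplp1 and -0.0078 for Rps18. With a slide block or on slide 1 it was -0.038 for Mrps16, -0.028 for Mrps27, -0.067 for Mrps34, -0.067 for Rpl3l, -0.031 for Rps27l and -0.011 for Rps6. With an array left out, Rpl3 ranged from -0.033 to 0.088, Rps27l from -0.069 to 0.047 and Mrps34 from -6.9e-05 to 0.122. Of the other values of these genes, 335 kept their direction and side of the threshold, 112 lost a call and 9 gained one. Of the genes named from lists, under the scalings tried, Eef2 turned to -0.076 under quantile normalization, -0.017 under loess, -0.072 in the matrix and -0.084 under normexp, and Tpt1 to -0.0072 under normexp. The cause was not tested.

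Same-numbered samples deviated from their group means with correlations of 0.007, -0.106 and 0.115. Those of differently numbered samples ran from -0.250 to 0.226. With 3 arrays a group, these correlations show no pairing by number and cannot exclude it. The 693 calls under the replicate block say nothing about the size of an effect. Slide 2 holds FeMnSi arrays alone, so the comparison within a slide rests on a single FeMnSi array.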
